A study of Mus musculus with 12 samples.

Results

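The pyruvate dehydrogenase complex and the enzymes that switch it on and off were followed in mouse inguinal white adipose tissue (iWAT) through 10 genes chosen by name. They encode both subunits of the E1 enzyme (Pdha1 and Pdhb), the E2 enzyme (Dlat), the E3 enzyme (Dld), the kinases Pdk1, Pdk2, Pdk3 and Pdk4, and the phosphatases Pdp1 and Pdp2. All 10 were among the 14159 genes with deposited normalized counts, and all 10 were among the 13404 genes that passed the filter on low values and entered the tests.

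Polyadenylated RNA of whole iWAT was sequenced in 12 libraries, with 3 biological replicates, numbered 0 to 2, in each of 4 groups. Atf4AKO mice carried floxed Atf4 alleles and Adipoq-Cre, and Atf4WT mice were their Atf4 fl/fl littermates, so that all 4 groups carried the floxed alleles on a C57BL/6 background. Mice of each genotype were kept at room temperature (RT) or were exposed to cold for 24 h, and the age of the sequenced mice is not given in the sources used here. Adipoq-Cre acts in adipocytes, and the other cells of the tissue keep Atf4. In a bulk sample of this kind, fewer cells of a type and less RNA per cell cannot be told apart.

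The pyruvate dehydrogenase complex lies in the mitochondrial matrix and turns pyruvate into acetyl-CoA, which commits carbon from glucose to oxidation or to fatty acid synthesis. The kinases phosphorylate the E1 alpha subunit and switch the complex off, and the phosphatases switch it on again. Pdk4 is known as the kinase that is induced in fasting and when fatty acids are burnt, and brown and beige adipocytes burn both glucose and fatty acids in the cold.

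The libraries held 25719476 to 29105147 reads on the listed genes. Atf4 itself lay between 4107 and 7644 normalized counts in the 6 Atf4WT libraries and between 788 and 1639 in the 6 Atf4AKO libraries, so that every library matched its genotype. Markers of white adipocytes were high in every library, with Adipoq between 55499.7 and 108458 normalized counts, and the thermogenic gene Ucp1 rose with cold in both genotypes (log2 fold change 7.67 in Atf4WT and 7.51 in Atf4AKO, limma adjusted p = 1.32e-05 and 8.69e-06). Skeletal muscle transcripts stood apart in 3 libraries. The summed normalized counts of the 15 listed muscle markers, of 24 looked for, came to 167585 in Atf4WT RT replicate 2, 56355 in Atf4WT cold replicate 0 and 7957 in Atf4AKO cold replicate 1, against 1630 to 2732 in the other 9 libraries. Genes of B cells and T cells also differed: the score of these lymphocyte markers, the mean of log2(normalized count + 1) over 18 of them, was 7.26 to 9.76 in the Atf4WT cold libraries and 7.07 in Atf4WT RT replicate 2, against 3.49 to 5.21 in the other 8 libraries.

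Cold exposure raised 6 of the 10 genes in each genotype, namely Pdk4, Dlat, Pdhb, Dld, Pdp2 and Pdk2, and none passed the test in the lower direction. A gene was counted here when its adjusted p (limma, Benjamini-Hochberg over all tested genes) was below 0.05. Among all tested genes 17% were called higher and 14.9% lower with cold in Atf4WT iWAT, and 14.8% and 11% in Atf4AKO iWAT. The median log2 fold change of the 10 genes was 0.65 in Atf4WT and 0.68 in Atf4AKO, beside 0.00 and -0.03 over all tested genes. With the threshold of the study, a fold change over 1.5 with an unadjusted p below 0.05, 5 of the 10 genes passed in Atf4WT iWAT and 6 in Atf4AKO iWAT, where 21.2% and 17.2% of all tested genes did. The 3 cold libraries did not overlap the 3 RT libraries for 9 genes in Atf4WT iWAT (46.8% of all tested genes) and for 8 genes in Atf4AKO iWAT (41.7%).

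**Figure D1:**
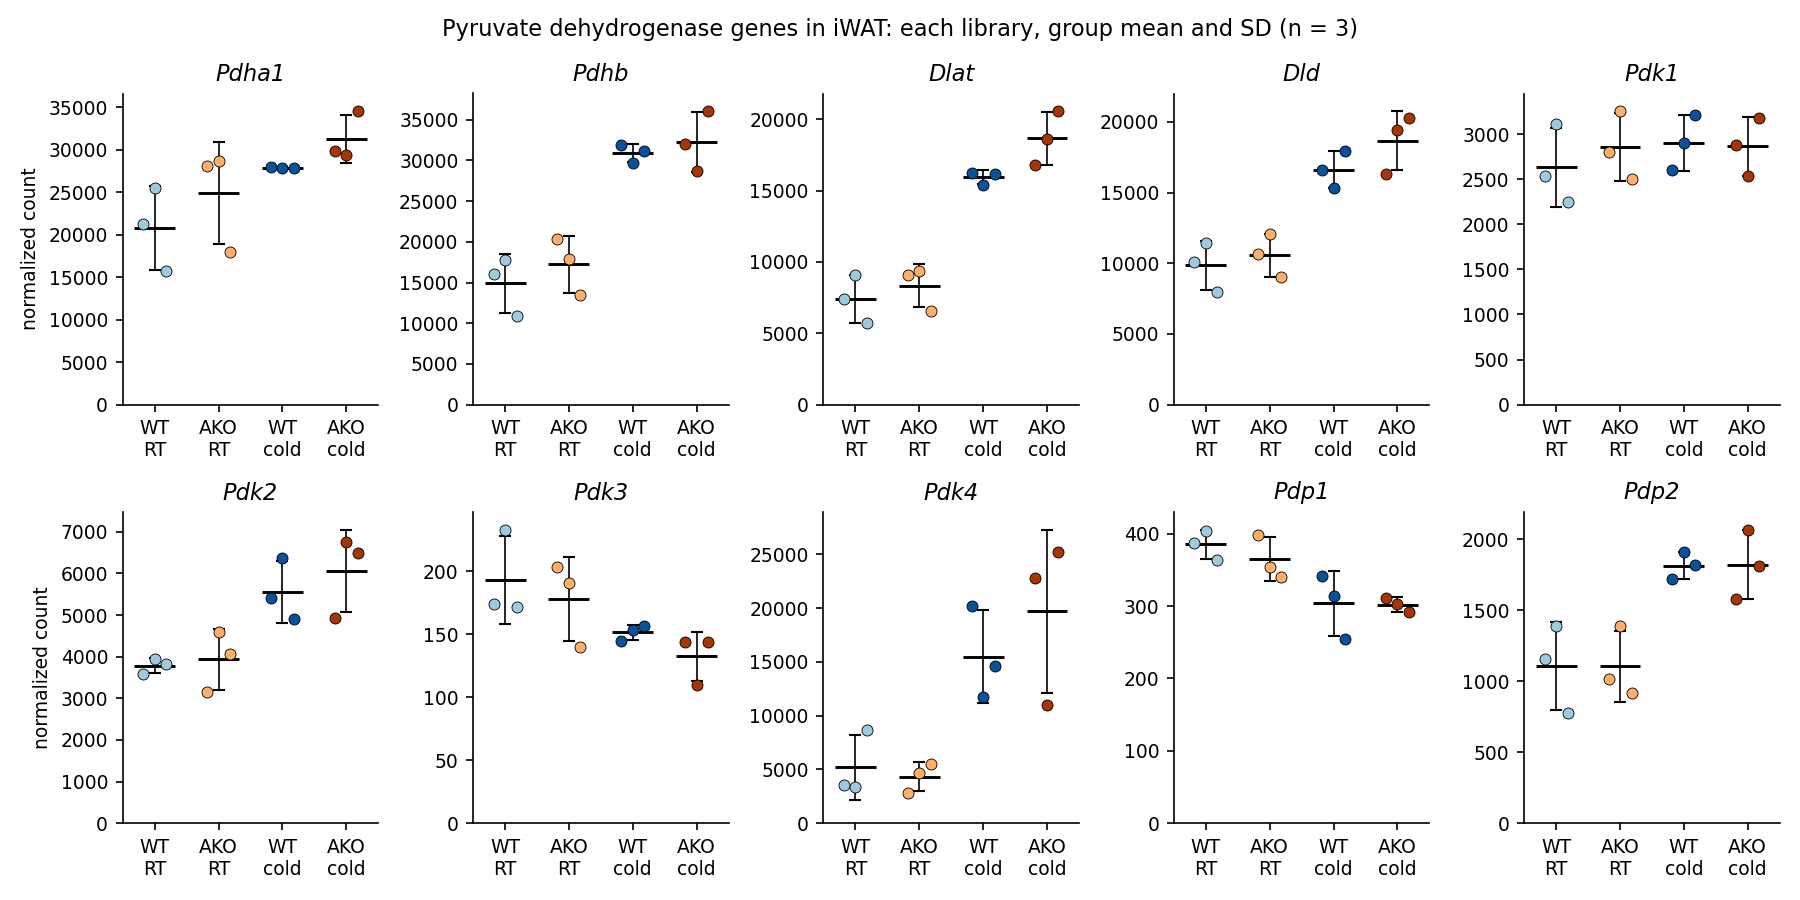
Normalized counts (vertical axes, each from 0) of the 10 genes in the 12 libraries, by group on the horizontal axes; each point is 1 library, the horizontal line is the group mean and the bars are the SD of 3 libraries. The cold libraries of Pdhb, Dlat, Dld, Pdk2, Pdk4 and Pdp2 lie above all RT libraries of the same genotype, while Pdk1 is level across the 4 groups.

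Of the E1 subunits, Pdhb rose with cold and Pdha1 did not pass the test. Pdhb, the beta subunit (NM_024221, chr14:8165991-8173303 on the minus strand of GRCm38.p6), had 16067, 17779.6 and 10867 normalized counts in Atf4WT replicates 0, 1 and 2 at RT and 31899, 29657 and 31132 after cold. The Atf4AKO libraries had 20298, 17898 and 13441 at RT and 32063, 28648 and 36045 after cold. Every cold library was higher than every RT library of either genotype, and replicate 2 was the lowest RT library of each genotype. The fold change was 2.12 in Atf4WT (95% interval 1.58 to 2.83, limma adjusted p = 0.00209) and 1.89 in Atf4AKO (1.41 to 2.53, limma adjusted p = 0.00573).

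Pdha1, the alpha subunit that carries the sites the kinases phosphorylate (NM_008810, chrX:160122219-160138430, minus strand), had 21198, 25442 and 15674 normalized counts in Atf4WT iWAT at RT and 27921, 27815 and 27776 after cold. The 3 cold libraries of Atf4WT were almost equal (SD 75.1) and above the RT libraries, which were spread widely (SD 4898). In Atf4AKO iWAT Pdha1 had 28033, 28655 and 17992 at RT and 29878, 29399 and 34522 after cold, and again the groups did not overlap, although replicates 0 and 1 at RT came close to the cold libraries. The log2 fold change was 0.45 (95% interval 0.01 to 0.89, limma adjusted p = 0.106) in Atf4WT and 0.36 (-0.08 to 0.79, limma adjusted p = 0.210) in Atf4AKO.

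The ratio of Pdhb to Pdha1 counts was therefore compared within each library, where a scaling of the whole library cancels. It was 0.717 ± 0.036 at RT and 1.11 ± 0.039 after cold in Atf4WT iWAT (SD, n = 3), and 0.699 ± 0.065 and 1.03 ± 0.051 in Atf4AKO iWAT. The RT libraries did not overlap the cold libraries in either genotype. The two-sided exact permutation p was 0.1 in each, the smallest that 3 libraries against 3 allow. Over the 16 comparisons of ratios between groups, the lowest Benjamini-Hochberg adjusted value of the exact permutation tests was 0.32.

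Dlat and Dld, the rest of the catalytic core, rose in both genotypes. Dlat, the E2 enzyme that passes the acetyl group to coenzyme A (NM_145614, chr9:50634633-50659780, minus strand), had 7415, 9051 and 5698 normalized counts at RT and 16260.2, 15357 and 16153 after cold in Atf4WT iWAT. In Atf4AKO iWAT it had 9094, 9331 and 6578 at RT and 16819.9, 18588 and 20564 after cold. The lowest cold library, at 15357, was well above the highest RT library, at 9331. The fold change was 2.19 (1.69 to 2.85, limma adjusted p = 0.000875) in Atf4WT and 2.26 (1.74 to 2.93, limma adjusted p = 0.000879) in Atf4AKO, the lowest adjusted p among the 10 genes in each genotype.

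Dld, the E3 enzyme that the complex shares with the 2-oxoglutarate and branched-chain dehydrogenases and with glycine cleavage (NM_007861, chr12:31331562-31351471, minus strand), had 10120.0, 11423 and 8003 normalized counts at RT and 16633, 15296 and 17973 after cold in Atf4WT iWAT. Atf4AKO iWAT had 10647, 12076 and 9026 at RT and 16297, 19414 and 20294 after cold. The cold libraries were all above the RT libraries, and replicate 2 was again the lowest RT library of both genotypes. The log2 fold change was 0.77 ± 0.15 (SE, limma adjusted p = 0.00343) in Atf4WT and 0.82 ± 0.15 (SE, limma adjusted p = 0.00279) in Atf4AKO, so Dld had the smallest change of the 3 core genes that were called.

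The lowest RT library of Atf4WT for these genes, replicate 2, was also the one richest in muscle transcripts and, among the RT libraries, in lymphocyte transcripts. It was the lowest of its group for 8 of the 10 genes, at 0.64 times the mean of the other 2 libraries for Pdhb, 0.67 for Pdha1, 0.69 for Dlat, 0.74 for Dld and 0.61 for Pdp2. In Atf4AKO iWAT RT replicate 2, whose muscle transcripts were few, was likewise the lowest of its group for 8 of the 10. Without the 3 muscle-rich libraries the log2 fold changes in Atf4WT were 0.85 for Pdhb, 0.94 for Dlat and 0.62 for Dld (limma adjusted p = 0.0131, 0.00836 and 0.0284), against 1.08, 1.13 and 0.77 in all libraries, and that of Pdha1 was 0.26 (limma adjusted p = 0.429).

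Pdk4 had the largest change of the 10 genes in both genotypes. Pdk4 (NM_013743, chr6:5483351-5496278, minus strand) had 3542, 3339 and 8706 normalized counts in Atf4WT iWAT at RT and 20163, 11693 and 14627 after cold. In Atf4AKO iWAT it had 2837, 4663 and 5478 at RT and 22817, 11038 and 25266 after cold. The cold libraries exceeded the RT libraries in both genotypes, and the SE of the log2 fold change was the largest of the 10 genes, at 0.42 in each genotype, with Atf4WT RT replicate 2 above the other RT libraries and Atf4AKO cold replicate 1 below the other cold libraries. The fold change was 3.22 (1.71 to 6.08, limma adjusted p = 0.0111) in Atf4WT and 4.44 (2.36 to 8.38, limma adjusted p = 0.00401) in Atf4AKO.

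Skeletal muscle is rich in Pdk4, so its values were set beside the muscle markers of each library. Atf4WT RT replicate 2 was the highest of all libraries for 14 of the 15 listed markers, at a median of 168 times the mean of the other Atf4WT RT libraries, and its Pdk4 was the highest of its group. In Atf4WT cold replicate 0 the median marker was 44.4 times the mean of the other 2 libraries of the group, and Pdk4 was again the highest of its group. In Atf4AKO cold replicate 1 the median marker was 10.8 times the mean of the other 2, and Pdk4 was the lowest of its group. Atf4AKO RT replicate 2, where the markers summed to 2089 normalized counts, also had the highest Pdk4 of its group, at 5478. Acta1, the actin of skeletal muscle, had 35541 normalized counts in Atf4WT RT replicate 2, 13734 in Atf4WT cold replicate 0 and 1314 in Atf4AKO cold replicate 1. Of the other defining markers, Tnnt3 had 26896, 8697 and 1070 normalized counts in the same libraries, and Ckm and Myh4 were not among the listed genes.

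The rise of Pdk4 was present in the libraries with few muscle transcripts. Without Atf4WT RT replicate 2 and Atf4WT cold replicate 0 the log2 fold change of Pdk4 in Atf4WT was 1.93 (SE 0.39, limma adjusted p = 0.00859), against 1.69 in all libraries. Without Atf4AKO cold replicate 1 as well, it was 2.53 in Atf4AKO (SE 0.24, limma adjusted p = 0.000671), against 2.15. With the muscle score as a covariate it was 1.72 in Atf4WT and 2.09 in Atf4AKO (limma adjusted p = 0.00845 and 0.00413). With the lymphocyte score as a covariate the call was lost in Atf4WT, where the log2 fold change was 0.98 (SE 0.66, limma adjusted p = 0.362), and it was kept in Atf4AKO (2.26, SE 0.41, limma adjusted p = 0.0033). In Atf4WT iWAT all 8 listed B cell markers and all 10 T cell markers were called higher with cold and in Atf4AKO iWAT none were, and the part of lymphocytes in the Pdk4 values was not tested beyond this covariate.

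**Figure D2:**
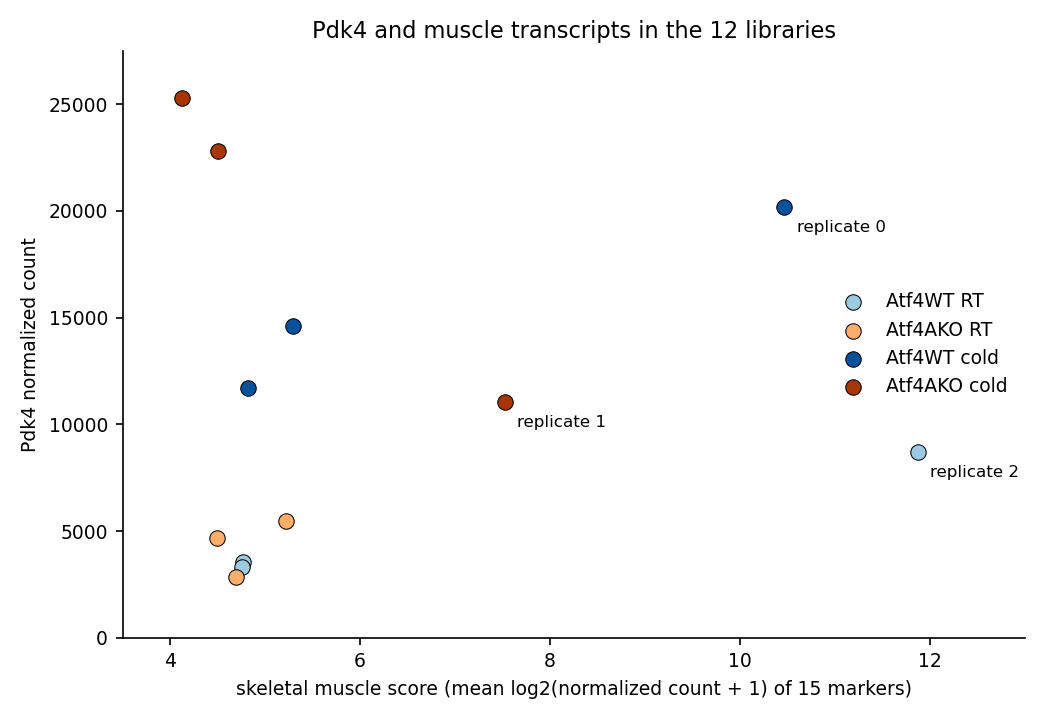
Normalized count of Pdk4 (vertical axis) against the skeletal muscle score, the mean of log2(normalized count + 1) over 15 markers (horizontal axis), in each of the 12 libraries; colours mark the 4 groups, and the 3 libraries with the highest score carry their replicate number. At scores of 5.30 and lower, the RT libraries have 2837 to 5478 counts and the cold libraries 11693 to 25266.

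Pdk2, the kinase found in most tissues, rose less than Pdk4. Pdk2 (NM_133667, chr11:95026258-95041371, minus strand) had 3586, 3950.5 and 3825 normalized counts at RT and 5399, 6364 and 4905 after cold in Atf4WT iWAT. Atf4AKO iWAT had 3147, 4602 and 4061 at RT and 4931, 6760.5 and 6496 after cold. The cold libraries lay above the RT libraries in both genotypes, in Atf4AKO by a narrow margin. The fold change was 1.46 (1.15 to 1.85, limma adjusted p = 0.0216) in Atf4WT and 1.54 (1.22 to 1.96, limma adjusted p = 0.0140) in Atf4AKO. The call was lost in Atf4WT without Atf4WT RT replicate 0 or cold replicate 1 (log2 fold change 0.51 and 0.44, against 0.55 in all libraries, limma adjusted p = 0.0697 and 0.0822). In Atf4AKO it was lost without Atf4AKO RT replicate 0 or cold replicate 1 (0.47 and 0.54, against 0.63, limma adjusted p = 0.0553 and 0.0555).

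Pdk1, known as a target of hypoxia signalling, and Pdk3 did not pass the test. Pdk1 (NM_172665, chr2:71873215-71903858, plus strand) ranged from 2250.3 to 3254 normalized counts over the 12 libraries, and its groups overlapped in both genotypes. The 95% interval of its log2 fold change with cold was -0.16 to 0.46 in Atf4WT and -0.30 to 0.32 in Atf4AKO. Pdk3 (NM_145630, chrX:93764616-93832150, minus strand) was the least abundant kinase, with 174, 233 and 172 normalized counts at RT and 145, 153 and 156 after cold in Atf4WT iWAT. The values in Atf4AKO iWAT were 204, 190.2 and 140.1 at RT and 143, 110.0 and 144 after cold. The cold libraries were below the RT libraries in Atf4WT and overlapped them in Atf4AKO, with log2 fold changes of -0.33 (limma adjusted p = 0.1996) and -0.42 (limma adjusted p = 0.126).

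The makeup of the kinase transcripts was compared per length, as normalized counts per kb of 1 RefSeq transcript of each gene. Pdk4 made up 31.92%, 27.97% and 52.98% of the sum of the 4 kinases in Atf4WT replicates 0, 1 and 2 at RT and 66.1%, 49.2% and 59.3% after cold. In Atf4AKO iWAT its share was 28.6%, 32.6% and 40.0% at RT and 69.9%, 47.2% and 67.0% after cold. The share overlapped between RT and cold in Atf4WT, where the muscle-rich RT library reached into the cold range, and did not overlap in Atf4AKO (two-sided exact permutation p = 0.2 and 0.1, with 0.1 the smallest possible). Pdk2 held 33.3% ± 7.4 after cold in Atf4WT (SD, n = 3) against 45.9% ± 8.5 at RT, although its own level rose. With the length of all annotated exons in place of 1 transcript, the mean share of Pdk4 in Atf4WT iWAT was 45.5% at RT and 66.1% after cold.

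**Figure D3:**
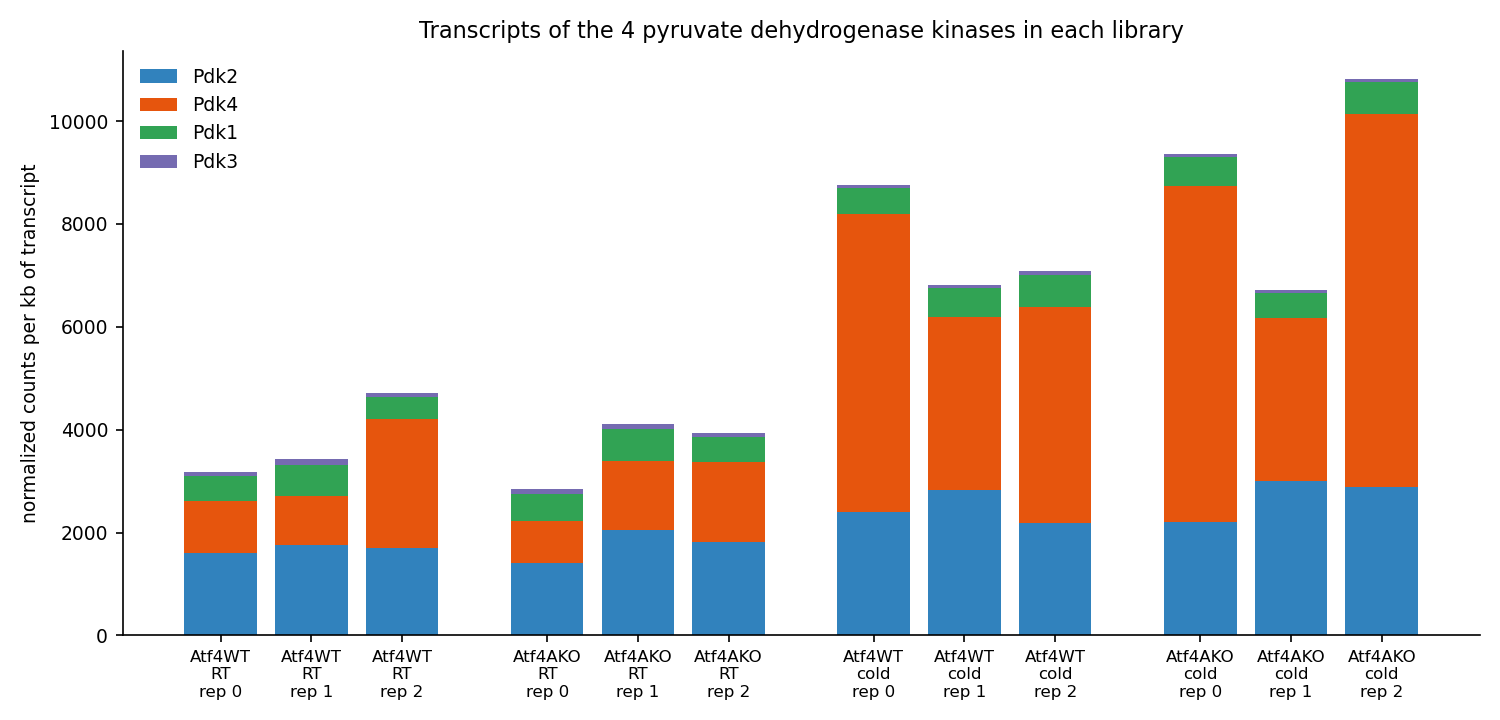
Normalized counts per kb of transcript (vertical axis, from 0) of Pdk2, Pdk4, Pdk1 and Pdk3, stacked for each of the 12 libraries on the horizontal axis. Pdk4 is the largest segment in every cold library and, at RT, in Atf4WT replicate 2, the library richest in muscle transcripts; Pdk2 is the largest in the other 5 RT libraries.

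Of the phosphatases, Pdp2 rose and Pdp1 did not pass the test. Pdp2 (NM_001024606, chr8:104591472-104599026, plus strand), known as the form responsive to insulin in fat, had 1157, 1388 and 772 normalized counts at RT and 1717, 1907 and 1816 after cold in Atf4WT iWAT. The values in Atf4AKO iWAT were 1013, 1388 and 914 at RT and 1579.5, 2067 and 1813 after cold. All cold libraries exceeded all RT libraries. The fold change was 1.69 (1.23 to 2.31, limma adjusted p = 0.0177) in Atf4WT and 1.66 (1.22 to 2.28, limma adjusted p = 0.0238) in Atf4AKO. The call was lost in Atf4WT without RT replicate 2 or cold replicate 1 (log2 fold change 0.52 and 0.72, against 0.75 in all libraries, limma adjusted p = 0.05004 and 0.0546). In Atf4AKO it was lost without RT replicate 0, RT replicate 2, cold replicate 1 or cold replicate 2 (0.68, 0.61, 0.64 and 0.73, against 0.73, limma adjusted p = 0.0797, 0.0793, 0.0843 and 0.0574).

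Pdp1, the calcium-activated phosphatase known from muscle (NM_001033453, chr4:11958183-11966450, minus strand), had 388, 404 and 363 normalized counts at RT and 342, 315 and 254 after cold in Atf4WT iWAT. In Atf4AKO iWAT it had 399, 354.5 and 340.5 at RT and 311, 303 and 291 after cold. In both genotypes the cold libraries were below the RT libraries, with log2 fold changes of -0.35 (limma adjusted p = 0.0508) and -0.27 (limma adjusted p = 0.133). In Atf4WT it passed the test without Atf4WT cold replicate 0 (log2 fold change -0.44, limma adjusted p = 0.0303). Pdp2 held 67.2% ± 5.5 of the phosphatase transcripts per kb at RT and 81.5% ± 2.7 after cold in Atf4WT iWAT (SD, n = 3), and 68.7% ± 4.9 and 81.5% ± 2.3 in Atf4AKO iWAT. The libraries at RT and after cold did not overlap (two-sided exact permutation p = 0.1 in each genotype, the smallest possible).

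The sum of the kinases per kb was 14.0 ± 6.2 times that of the phosphatases at RT and 19.4 ± 3.2 times after cold in Atf4WT iWAT (SD, n = 3). In Atf4AKO iWAT it was 13.1 ± 2.9 and 23.3 ± 6.9 times. The groups overlapped in both genotypes (two-sided exact permutation p = 0.3 and 0.2). Levels of mRNA do not give the phosphorylation of the complex, which was not measured in these libraries.

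Per kb of transcript, the order of the levels in Atf4WT iWAT at RT was Pdhb (9851 ± 2380, SD, n = 3), Pdha1 (7293 ± 1720), Dld (3871 ± 679), Dlat (1831 ± 415), Pdk2 (1686 ± 82), Pdk4 (1491 ± 873), Pdk1 (508 ± 84), Pdp2 (194 ± 55), Pdp1 (91.7 ± 4.9) and Pdk3 (91.1 ± 16). Pdhb was above Pdha1 within each of these libraries, at a ratio of 1.35 ± 0.067 (SD, n = 3). The means of the neighbours Dlat and Pdk2, of Pdk2 and Pdk4, and of Pdp1 and Pdk3 lay apart by less than the larger SD of the pair. After cold Pdk4 (4447 ± 1235) stood beside Dlat (3946 ± 122), and Pdhb (20421 ± 753) stood apart from Pdha1 (9774 ± 26). The position of Pdhb depended on the length used: per kb of all annotated exons, Pdha1 (5563 ± 1312) was above Pdhb (3860 ± 932) at RT, and Pdhb (8002 ± 295) was above Pdha1 (7455 ± 20) after cold. The position of Pdk4 depended on it too. Per kb of all annotated exons the mean of Pdk4 (1480 ± 866) was above that of Pdk2 (1197 ± 59) at RT. After cold Pdk4 (4413 ± 1225) then stood beside Dld (4516 ± 363), with Dlat at 3259 ± 101.

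**Figure D4:**
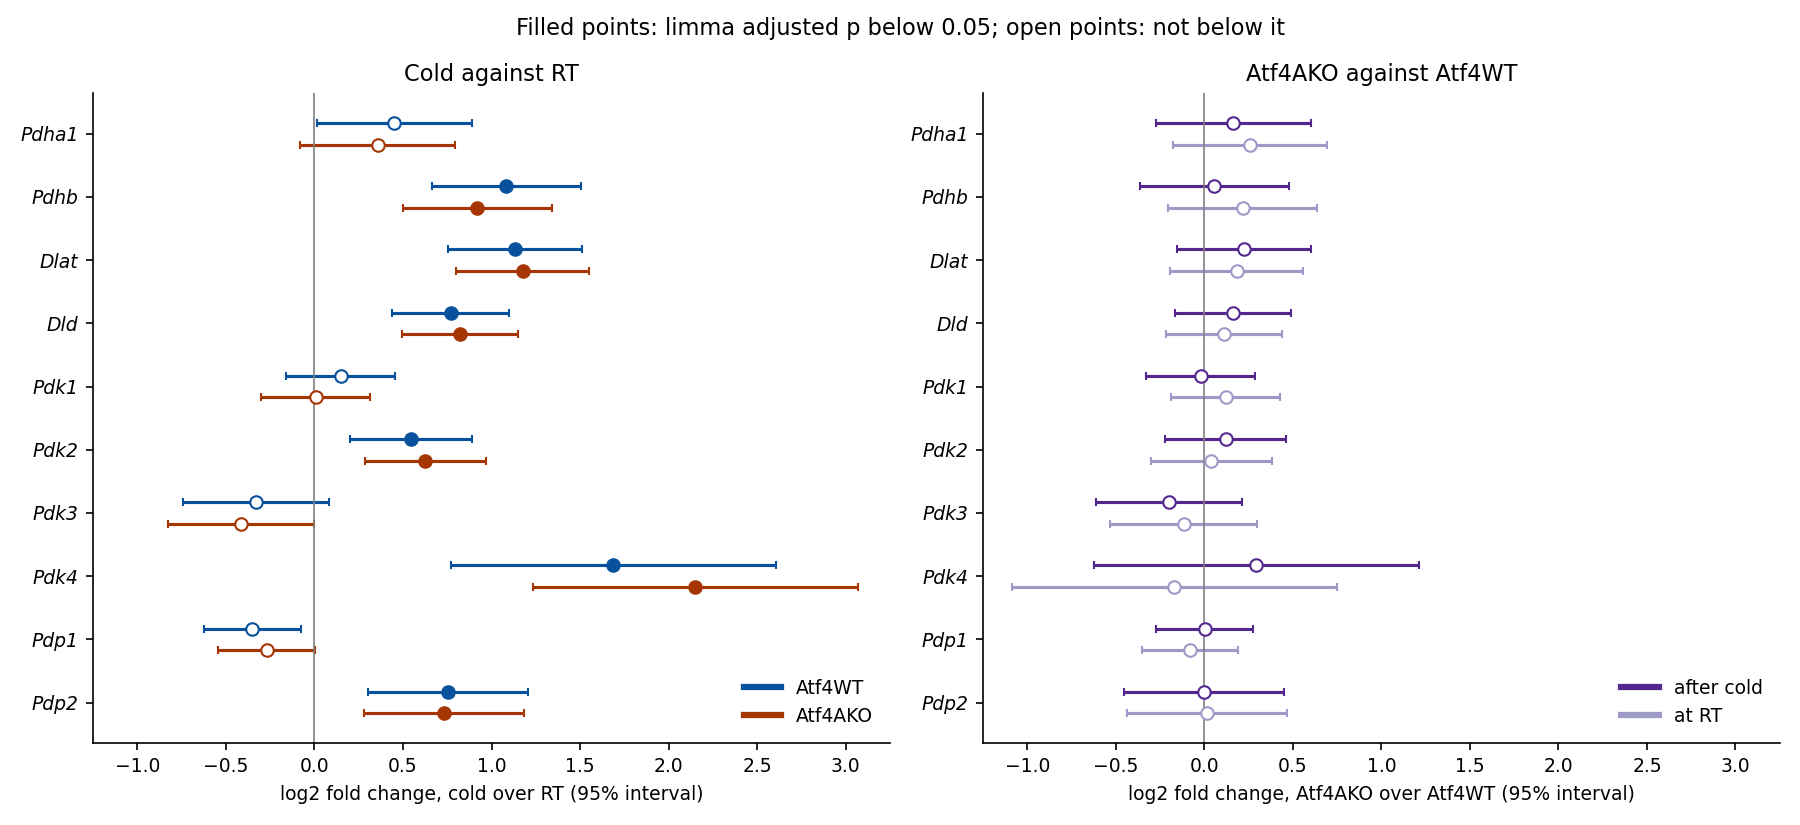
Log2 fold changes (horizontal axes) of the 10 genes with 95% intervals from the limma fit of 3 libraries per group, for cold over RT in each genotype (left) and Atf4AKO over Atf4WT after cold and at RT (right); filled points have an adjusted p below 0.05 and open points do not. Pdk4 has the largest cold response and the widest interval, and every interval between the genotypes includes 0.

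Between the genotypes, none of the 10 genes passed the test after cold, at RT or in the difference of the cold responses, and none had an unadjusted p below 0.05 in limma. DESeq2 and edgeR also called 0 of the 10. Among all tested genes 0.0298% were called after cold, 0.00746% at RT and 0% in the difference of the responses. With the threshold of the study none of the 10 genes passed either, beside 6.4% of all tested genes after cold, 0.463% at RT and 4.63% for the difference. The lowest limma adjusted p of a member was 0.656 after cold.

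The intervals show how large a difference between the genotypes the fit without a covariate leaves room for. After cold the log2 difference, Atf4AKO over Atf4WT, ran from -0.20 for Pdk3 to 0.29 for Pdk4. Its 95% interval was -0.62 to 1.21 for Pdk4, that is 0.65 to 2.31 times the level of Atf4WT, and -0.15 to 0.60 for Dlat. Pdha1 and Dlat were higher, and Pdk3 lower, in all 3 Atf4AKO cold libraries than in all 3 Atf4WT cold libraries, and the groups of 16.5% of all tested genes did not overlap in this comparison. At RT the groups of all 10 genes overlapped, while those of 6.3% of all tested genes did not, and the interval of Pdk4 was -1.08 to 0.75. The cold response of Pdk4 in Atf4AKO minus that in Atf4WT was 0.46 on the log2 scale, with an interval of -0.83 to 1.76 (limma adjusted p = 0.9961). Over the alternatives the log2 difference after cold ran from -0.78 to 0.10 for Pdp2 and from 0.07 to 1.15 for Pdk4. The difference of the cold responses of Pdk4 ran from 0.02 to 1.28, and none of these values passed the test. The comparisons share libraries, so their values are given side by side and are not independent of each other.

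The promoters of genes that rose together are shown beside that of Pdha1, which did not pass the test. RefSeq (GRCm38.p6) gave a start site for 9 of the 10 genes, all but Pdp1, and the first listed start was taken where there were several. The 250 bases before the start are printed 5′ to 3′ on the strand of the gene, and capitals mark the CCAAT box (CCAAT or ATTGG) and the core of the cyclic AMP response element (TGACG or CGTCA). They lie at chr6:5496279-5496528 (Pdk4), chr11:95041372-95041621 (Pdk2), chr9:50659781-50660030 (Dlat) and chrX:160138431-160138680 (Pdha1), all on the minus strand.
Pdk4: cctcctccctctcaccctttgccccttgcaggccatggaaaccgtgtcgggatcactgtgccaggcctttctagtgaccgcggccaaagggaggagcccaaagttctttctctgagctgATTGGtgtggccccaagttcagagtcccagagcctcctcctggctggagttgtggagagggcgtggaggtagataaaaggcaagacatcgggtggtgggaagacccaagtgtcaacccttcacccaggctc
Pdk2: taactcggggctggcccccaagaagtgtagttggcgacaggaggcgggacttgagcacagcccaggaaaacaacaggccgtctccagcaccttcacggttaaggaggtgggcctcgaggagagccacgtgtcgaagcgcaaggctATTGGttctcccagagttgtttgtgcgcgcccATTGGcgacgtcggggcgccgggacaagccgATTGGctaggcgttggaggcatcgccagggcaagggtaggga
Dlat: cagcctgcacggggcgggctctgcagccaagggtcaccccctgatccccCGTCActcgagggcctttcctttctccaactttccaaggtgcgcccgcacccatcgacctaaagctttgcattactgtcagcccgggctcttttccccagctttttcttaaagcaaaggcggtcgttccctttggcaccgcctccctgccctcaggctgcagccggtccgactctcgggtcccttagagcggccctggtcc
Pdha1: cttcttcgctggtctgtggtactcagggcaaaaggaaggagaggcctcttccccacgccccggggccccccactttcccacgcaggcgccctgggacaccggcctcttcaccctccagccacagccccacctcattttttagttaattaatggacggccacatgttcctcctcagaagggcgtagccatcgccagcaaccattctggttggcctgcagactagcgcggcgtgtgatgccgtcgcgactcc

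The CCAAT box was found in 6 of the 9 promoters, namely those of Pdhb, Dld, Pdk2, Pdk3, Pdk4 and Pdp2, and in 33.8% of the 32851 mouse promoters of the same length. Pdk2 and Pdhb held 3 copies each, all in reverse. TGACG was found in the promoters of Pdhb, Dlat and Pdp2 and in 17.8% of all promoters. No match on either strand was found in the 9 windows for AGGTCA, the core motif of nuclear receptors (14.0% of all promoters), its longer form AAGGTCA (4.08%), the composite motif of ATF4 and C/EBP factors TGATGNAA (3.45%) or the FoxO motif GTAAACA (3.17%). The motif AGGTCA is contained in AAGGTCA, so these searches overlap. A match or its absence describes these 250 bases alone.

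Of the partners of the complex, Pdhx, the protein that anchors the E3 enzyme to the core, rose with the core genes. Pdhx had 2335, 2569.5 and 1830.3 normalized counts at RT and 4920.5, 4831 and 5049.5 after cold in Atf4WT iWAT, and its cold libraries were all above the RT libraries. Its fold change was 2.22 (limma adjusted p = 0.000673) in Atf4WT and 2.11 (limma adjusted p = 0.00111) in Atf4AKO. Pdpr, the regulatory subunit of the phosphatase, did not pass the test in either genotype (log2 fold change -0.45 and -0.08), and Pdha2 was not among the listed genes.

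Of 13 tested genes of pyruvate supply and fate, 3 were called higher and 2 lower with cold in Atf4WT iWAT, and 3 and 1 in Atf4AKO iWAT, with a median log2 fold change of 0.17 and 0.12. Over all tested genes the shares called higher and lower were 17% and 14.9% in Atf4WT, and 14.8% and 11% in Atf4AKO. Mpc2, a subunit of the carrier that brings pyruvate into mitochondria, rose 2.41-fold in Atf4WT (limma adjusted p = 0.00116) and 2.11-fold in Atf4AKO (limma adjusted p = 0.00326). Its partner Mpc1 was not among the listed genes. Slc16a1, a transporter of lactate and pyruvate, and Ldhb, a lactate dehydrogenase subunit, rose in both genotypes (log2 fold change 1.538 and 1.501 for Slc16a1, 1.32 and 1.48 for Ldhb). Gpt, an alanine aminotransferase, fell in both (-0.69 and -0.55). Slc16a7, a transporter of the same family as Slc16a1, fell in Atf4WT (-0.72, limma adjusted p = 0.00483). Its value in Atf4AKO, -0.40, did not pass the test (limma adjusted p = 0.0705). Ldha had log2 fold changes of 0.17 and 0.12 and Pcx, pyruvate carboxylase, of 0.10 and -0.01, and neither passed the test in either genotype.

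Of 6 tested genes that supply the cofactors of the complex and are reported here, 4 were called higher in each genotype, with a median of 0.53 in Atf4WT and 0.69 in Atf4AKO. Over all tested genes 17% were called higher in Atf4WT and 14.8% in Atf4AKO. Slc25a42, the mitochondrial carrier of coenzyme A, Lipt1, which attaches lipoic acid to the E2 enzymes, and Slc19a2, a thiamine transporter, rose in both. The log2 fold changes were 1.18 and 1.498 for Slc25a42, 0.80 and 0.82 for Lipt1, and 0.595 and 0.675 for Slc19a2. Lias, which makes lipoic acid, rose in Atf4WT (log2 fold change 0.31, limma adjusted p = 0.0436), and its value in Atf4AKO, 0.31, did not pass the test (limma adjusted p = 0.0506). Without the 3 muscle-rich libraries 2 of the 6 were called higher in Atf4WT and 3 in Atf4AKO.

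Of 11 tested genes of the related dehydrogenase complexes and glycine cleavage, 4 were called higher and 2 lower in Atf4WT iWAT, and 4 and 1 in Atf4AKO iWAT (median -0.03 and 0.24). The shares of all tested genes called higher and lower were 17% and 14.9% in Atf4WT, and 14.8% and 11% in Atf4AKO. Ogdh and Dlst, the E1 and E2 enzymes of the 2-oxoglutarate dehydrogenase that use the same Dld, rose in both genotypes (log2 fold change 0.78 and 0.94 for Ogdh, 0.89 and 1.01 for Dlst). Dhtkd1, the E1 enzyme of the 2-oxoadipate dehydrogenase, and Gldc, of glycine cleavage, fell in Atf4WT (-0.69 and -1.11), and their values in Atf4AKO, -0.20 and -0.40, did not pass the test. The difference between the genotypes in these responses did not pass the test in any of the 11 genes. Without the 3 muscle-rich libraries 2 were called higher and 3 lower in Atf4WT.

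Of 15 genes listed as candidate regulators of Pdk transcription, 5 were called higher and 2 lower in Atf4WT iWAT, and 5 and 3 in Atf4AKO iWAT (median 0.17 and 0.30). Over all tested genes these shares were 17% and 14.9% in Atf4WT, and 14.8% and 11% in Atf4AKO. The candidates that rose in both were Ppara, a receptor for fatty acids, its coactivators Ppargc1a and Ppargc1b, and the estrogen-related receptors Esrra and Esrrg. Ppargc1a had 398, 323 and 262 normalized counts at RT and 1555, 1029 and 1382 after cold in Atf4WT iWAT, and 253, 318 and 303 at RT and 2237, 1159 and 2001 after cold in Atf4AKO iWAT. In Atf4AKO after cold, replicate 1 was the lowest of its group for Ppargc1a, Ppargc1b and Ppara, as it was for Pdk4. The same library was the highest of its group for Esrra and the middle one for Esrrg. The log2 fold changes were 2.01 and 2.57 for Ppargc1a, 1.62 and 2.15 for Ppargc1b, 1.27 and 1.23 for Esrra, and 2.02 and 2.57 for Esrrg. Foxo4, a forkhead factor, and Rxra, the retinoid X receptor that pairs with Ppara, fell in both genotypes (-0.51 and -0.35 for Foxo4, -0.498 and -0.457 for Rxra). Foxo3, another forkhead factor, fell in Atf4AKO (-0.94), and its value in Atf4WT, -0.66, did not pass the test. Foxo1, of the same family, did not pass the test in either genotype (-0.21 in Atf4WT and -0.06 in Atf4AKO). Without the 3 muscle-rich libraries 5 genes were called higher in each genotype, and 2 lower in Atf4WT and 1 in Atf4AKO.

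Of 23 genes of fatty acid use, 16 were called higher and 3 lower in Atf4WT iWAT, and 16 and 2 in Atf4AKO iWAT, with a median of 0.86 and 1.04. Over all tested genes the shares called higher and lower were 17% and 14.9% in Atf4WT, and 14.8% and 11% in Atf4AKO. Cpt1b, the carnitine palmitoyltransferase of muscle and brown fat, Slc25a20, the carnitine carrier, Plin5, a lipid droplet protein, and Acot1, an acyl-CoA thioesterase, had the smallest p-values of this list in Atf4WT. Their log2 fold changes were 2.908, 1.781, 2.248 and 3.001 in Atf4WT and 3.79, 1.95, 2.23 and 3.54 in Atf4AKO. Without the 3 muscle-rich libraries 15 and 14 genes were called higher.

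**Figure D5:**
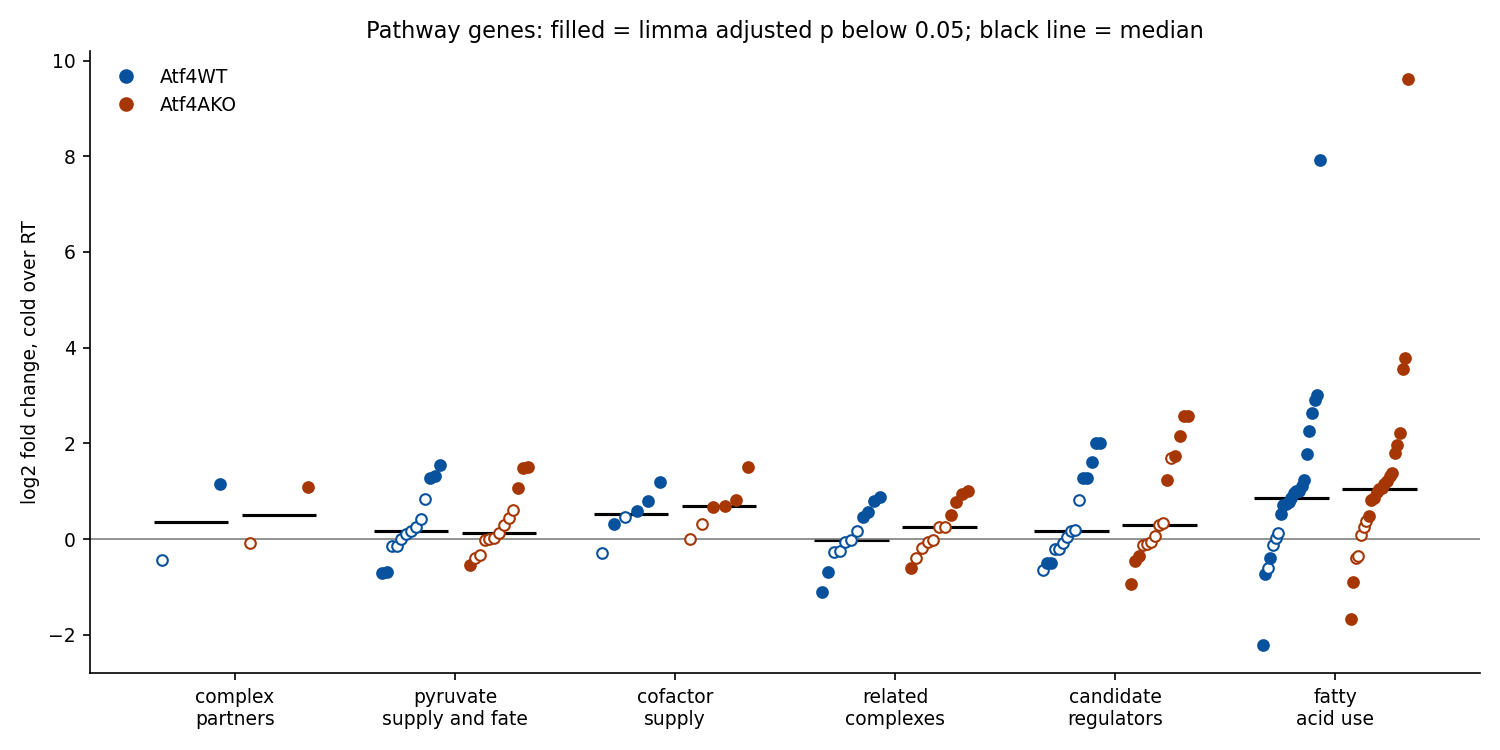
Log2 fold changes with cold (vertical axis) of the tested genes in 6 lists related to the complex (horizontal axis), in Atf4WT and Atf4AKO iWAT; each point is 1 gene, filled where the limma adjusted p is below 0.05, and the black lines are list medians. The list of fatty acid use has the highest median in both genotypes (0.86 and 1.04). This list and those of pyruvate supply, related complexes and candidate regulators hold genes called in both directions.

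The genes whose log2 values followed Pdk4 most closely over the 12 libraries, out of 11841 whose mean reached 50 normalized counts, were Qtrt2, Clcn6, Zw10, Npnt and Hspa1l (Pearson r 0.97, 0.96, 0.96, 0.95 and 0.95), and the most opposite were Zfp275, Triobp and Rbl2 (r -0.97, -0.96 and -0.96). These points share the difference between cold and RT, so r is given as a description. Qtrt2, a subunit of a tRNA modifying enzyme, had log2 fold changes with cold of 0.46 and 0.54, far smaller than those of Pdk4. Of the members, Pdk2 (r 0.77), Dlat (0.76), Dld (0.74) and Pdhb (0.72) were nearest to Pdk4, and Pdp1 (-0.78) and Pdk3 (-0.68) were the most opposite. Pdk2 ranked 1025 among the 11841 genes. Ppargc1a had an r of 0.91 and ranked 45.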

How the data were processed

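Polyadenylated RNA of iWAT was sequenced in 12 libraries, 3 biological replicates in each of 4 groups. SOAPnuke was used by the authors to filter reads and STAR to align them to mm10, after which featureCounts gave the uniquely mapped reads of each gene and pyDESeq2 the size factors that divided them. Versions and the strand setting of the counting are not given in the sources used here. The values the authors deposited are thus a normalized signal. No listed gene was without a read in any library, and all values were whole reads within 0.001 when divided by the value of 1 read. No column of values was left out.

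Log2(normalized count + 1) was fitted with limma 3.58.1 in R 4.3.3 (eBayes with a trend) for the 13404 genes whose mean reached 10, with the 4 group means and no covariate. The study names DESeq2, which was run as an alternative (1.42.0) with edgeR 4.0.16 on the reads of 11 libraries; Atf4AKO RT replicate 1, whose values were whole reads too, was left out of both because its value of 1 read, 0.996, lay too near 1 for the rule that accepted recovered reads. Ratios were compared with exact permutation tests of 3 libraries against 3. Other alternatives were pseudocounts of 0.5 and 5, no filter or a mean of 50, only the groups compared, rescaling to the 75th percentile, array weights, the replicate block, both scores as covariates and leaving out libraries. The scripts were tested on simulated data. Lengths and positions came from RefSeq and GENCODE vM21 annotation of GRCm38.p6 (mm10). Genes named were the 10 members, up to 4 genes of each related list with the smallest p in Atf4WT, and those most like Pdk4. The members and lists were chosen with earlier results of these data known. One gene on the list of cofactor supply is not reported here, and that list's counts and medians leave it out. Ppara, Foxo4, Rxra, Foxo3, Foxo1 and Slc16a7 were named after their values were seen.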

Additional observations from a re-analysis of the deposited data

How the results depend on the processing

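The 27 alternatives included the threshold of the study, which changes calls and no values. Of all 1290 values of the members under the alternatives, none that passed the test changed sign, and 88 that did not pass did so. With cold, the number of the 10 genes called was 4 to 7 in Atf4WT and 4 to 6 in Atf4AKO when single libraries were left out, and 6 and 6 with edgeR or DESeq2. Between the genotypes it was 0 in every alternative that was run. With the replicate number as a block 7 and 6 genes were called, Pdp1 being the addition in Atf4WT (log2 fold change -0.35, limma adjusted p = 0.0280). Whether the replicate numbers pair the samples is not settled by these libraries. The correlation of deviations was over 0.1 in 9 of 18 same-numbered pairs and ran from -0.19 to 0.39. In 17 of 36 cases a library correlated best with its own number. Pdhb, Dlat and Dld were called in all alternatives in both genotypes. Pdp1 was also called lower in Atf4WT with a filter at 50 (adjusted p = 0.0428), rescaling (0.0341) and array weights (0.0319), and Pdha1 without Atf4AKO RT replicate 2 (0.0497). Leaving out 2 or 3 muscle-rich libraries together was chosen after the data were seen. It left 5 genes called in Atf4WT, where Pdk2 and Pdp2 were lost (adjusted p = 0.0692 and 0.0581 without all 3) and Pdp1 was gained (0.0499), and 6 or 5 in Atf4AKO, where Pdk2 was lost without all 3 (0.0801). The lymphocyte score as a covariate left 4 genes called in Atf4WT, without Pdk4 and Pdk2 (adjusted p = 0.362 and 0.0747). The log2 fold change of Pdk4 was then smaller (0.98) and those of Pdk2 (0.76, against 0.55), Pdp2 (1.39), Pdhb (1.52), Dlat (1.60) and Dld (1.18) were larger than without it. With 3 libraries in each group, the interval of Pdk4 between the genotypes was the widest of the 10.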
